A study of Danio rerio with 7 samples.

Results

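The mitochondrial genome of the zebrafish encodes 13 proteins, all of them subunits of the respiratory chain or the ATP synthase, and 9 of these genes were looked up by name: for complex I mt-nd1, mt-nd2, mt-nd3, mt-nd4, for complex III mt-cyb, for complex IV mt-co1, mt-co2, mt-co3, and for complex V mt-atp6. They were searched for, ignoring case, in 8 lists of gene identifiers (modules) and in the 8 annotation charts that go with them. All 9 were found, among 4449 module genes in all. They were chosen with earlier results of these data known, so finding all 9 is no result in itself. Of the 13 genes, 9 (69.2%) lay in a module and 4 in none. Of all 29201 zebrafish genes with a symbol, 12.5% lay in a module. Neither the lists nor the charts hold an expression level, so no gene can be said to be higher or lower in any cell.

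The cells behind the modules came from adult zebrafish hearts, 7 days after a cryoinjury, a wound made by freezing part of the ventricle. All fish carried the nppa:mCitrine reporter, whose fluorescence marks cells that use the natriuretic peptide gene nppa, and single cells of the ventricle were sorted on it for sequencing of polyadenylated RNA. The labels call them border zone cardiomyocytes, with the words border zone in brackets. The sequenced plates fall into 3 plates of wildtype fish and 4 plates of hmga1a mutant fish, a gene for a chromatin protein of the high mobility group. The sources used here do not give the mutant allele, the number of fish behind a plate, the cells kept per plate or the way the modules were made. Because the lists carry no values per plate, the depth of each plate is unknown and wildtype and mutant plates could not be compared.

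Heart muscle makes most of its ATP by oxidative phosphorylation. Complex I takes electrons from NADH, complex III passes them to cytochrome c, complex IV hands them to oxygen, and each of these pumps protons that complex V, the ATP synthase, uses to make ATP. Each of these 4 complexes is built from subunits of both genomes, whereas complex II is made of nuclear-encoded subunits alone. Most of the mitochondrial genes are transcribed together in long precursors, which are cut into mRNAs. Most of these receive short poly(A) tails, so transcripts of this genome can be captured with those of the nucleus, though not necessarily all alike.

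All 9 genes lay in module 1, the largest module, which holds 1543 of the 4449 module genes (34.7%). None lay in another module, and no gene of any kind was listed in more than 1. Of the 13 protein-coding genes, 4 were in no module: mt-nd4l, mt-nd5 and mt-nd6 of complex I and mt-atp8 of complex V. All 13 have an entry in the name table that pairs identifiers with symbols, so these 4 were not missed for want of a name. The symbols of the ribosomal RNAs mt-rnr1 and mt-rnr2 were not in that table and their place could not be read.

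The number of mitochondrial genes listed differed between the complexes. This describes the list alone, and whether the library method bears on which genes are listed was not tested. Complex IV was there with all 3 of its mitochondrial genes: mt-co1, which holds the site where oxygen is reduced, mt-co2, which receives electrons from cytochrome c, and mt-co3. Complex III was there with its lone mitochondrial gene, mt-cyb, the cytochrome b that carries electrons between ubiquinone sites. Complex I had 4 of 7, with mt-nd1 to mt-nd4 in the list, all parts of the membrane arm. Complex V had 1 of 2, mt-atp6, which forms part of the proton path of the ATP synthase. The reading frames of mt-atp8 and mt-atp6 overlap in vertebrates, as do those of mt-nd4l and mt-nd4, and the members of each pair share an mRNA. The sources used here do not say how reads over such a pair were assigned, so the presence of mt-atp6 and mt-nd4 without their partners is uncertain as a statement about separate transcripts.

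The genes stood side by side in the deposited list, at positions 691 to 699 of 1543. The order was mt-nd1 (ENSDARG00000063895) at 691, mt-nd2 (ENSDARG00000063899) at 692, mt-co1 (ENSDARG00000063905) at 693 and mt-co2 (ENSDARG00000063908) at 694. It went on with mt-atp6 (ENSDARG00000063911) at 695, mt-co3 (ENSDARG00000063912) at 696, mt-nd3 (ENSDARG00000063914) at 697, mt-nd4 (ENSDARG00000063917) at 698 and mt-cyb (ENSDARG00000063924) at 699. This is the order of their identifiers, and it is also the order in which the RefSeq table of assembly GRCz12tu places the genes along the mitochondrial genome. The place of the genes in the list thus follows their identifiers and carries no rank of its own. The list of module 1 consists of 5 ascending runs of identifiers, and all 9 genes fell in the first, which spans positions 1 to 1085. The sources used here do not say what the runs stand for.

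**Figure D1:**
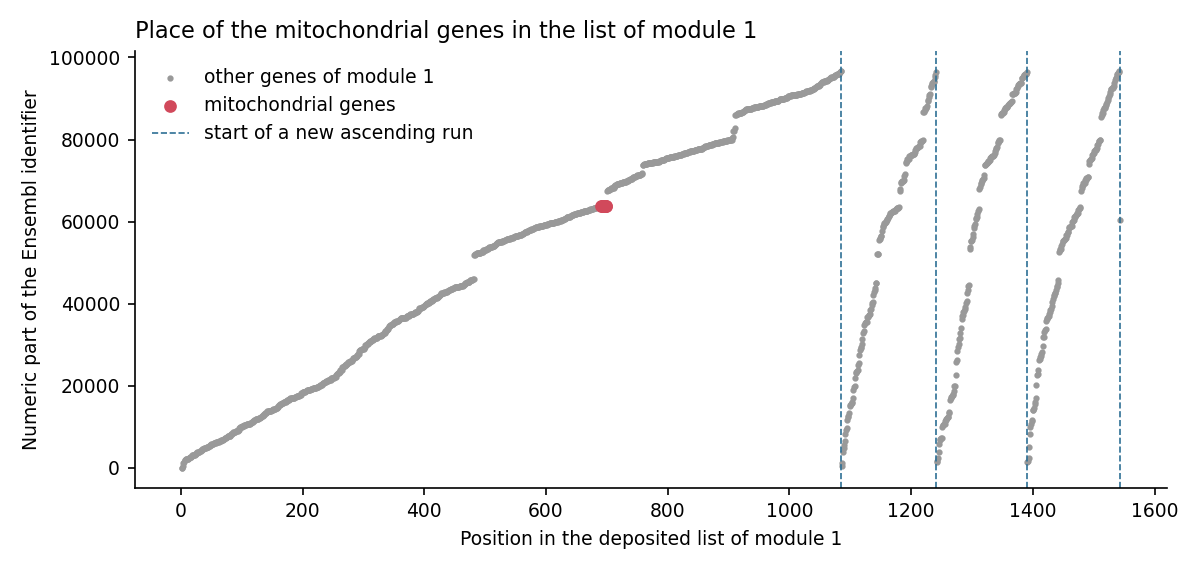
The horizontal axis gives the position in the deposited list of module 1 and the vertical axis the numeric part of the Ensembl identifier. Grey points are the other genes of module 1, red points the 9 mitochondrial genes at positions 691 to 699, and dashed lines mark where a new ascending run of identifiers begins.

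The 4 missing genes leave gaps in this block. In identifier order mt-atp8 belongs between mt-co2 and mt-atp6, mt-nd4l between mt-nd3 and mt-nd4, and mt-nd5 and mt-nd6 between mt-nd4 and mt-cyb. The name table holds 13 identifiers from mt-nd1 to mt-cyb, and these are the 13 protein-coding genes. Of them the module lists hold the 9 described and no other. The nearest named gene before the block was AADAC at position 688, and the gene after it was pcsk5a at position 700, a proprotein convertase.

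The nuclear-encoded subunits of the same complexes lay elsewhere. A list of 100 symbols for subunits of complexes I to V, 80 of them in the name table, gave 83 identifiers. Of these, 48 were in a module, beside 12.5% of all genes with a symbol. Module 7 held 47 of the 48, although it holds 379 of all module genes (8.52%). Module 1 held 0, beside its 34.7% of all module genes. The placement of these genes in module 7 was already known from earlier work on these lists and the present count is no separate evidence for it.

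Complex I had 17 nuclear-encoded subunits in module 7, the first in the deposited order being NDUFB8, ndufab1b, NDUFB4 and NDUFA2, and none in module 1 beside mt-nd1 to mt-nd4. Among the 17 is ndufa4b, which carries a complex I name but is listed in the chart row for cytochrome c oxidase activity. Complex III had 4, UQCRFS1, the Rieske iron-sulfur protein, with UQCRB, UQCRQ and UQCRH, all apart from mt-cyb. Complex IV had 8 in module 7, led by cox4i1l, COX4I1, cox6b2 and cox6c, and 1 in module 2, cox6a1 (position 126), while a further identifier with the symbol COX6A1 lay in module 7. Complex V had 17, led by ATP5PO, atp5mc3b, ATP5PB and ATP5MG, and including atp5if1a and atp5if1b, which are inhibitors of the enzyme and no parts of its core. SDHC was the lone gene of complex II found.

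**Figure D2:**
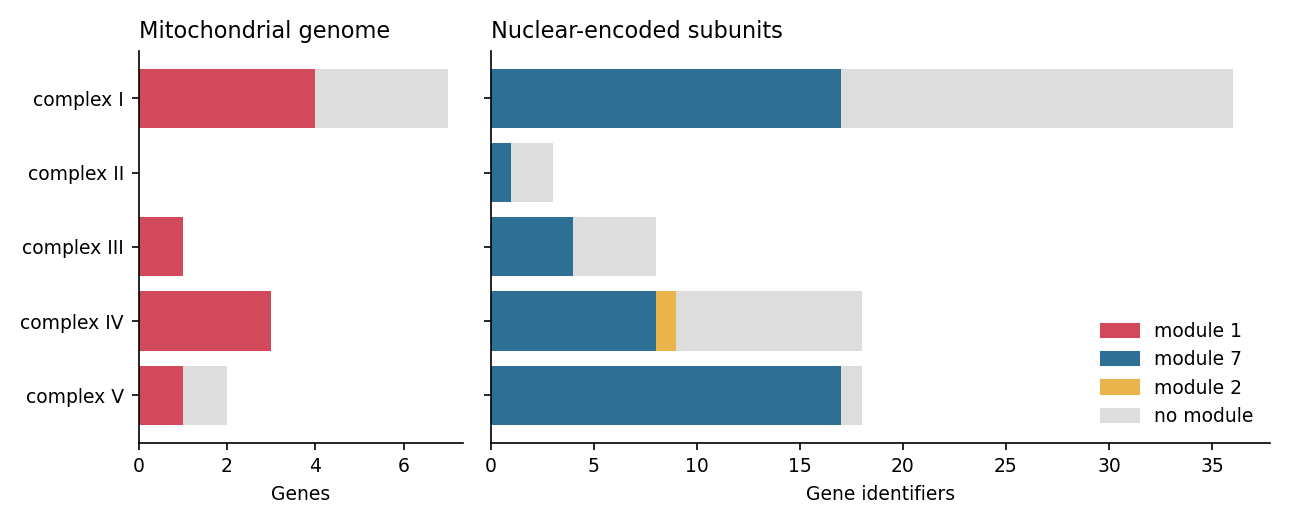
Bars count the genes of each complex by the module that lists them, for the 13 protein-coding genes of the mitochondrial genome on the left and for 83 identifiers of nuclear-encoded subunits on the right, each axis starting at 0. The mitochondrial genes lie in module 1 (9) or in no module (4), and the nuclear-encoded ones in module 7 (47), in module 2 (1) or in no module.

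Looked up by symbol, genes that build the complexes or handle the mitochondrial genome were not in module 1 either, beside its 34.7% of all module genes. Only 1219 of the 1543 genes of module 1 have a symbol, and the rest could not be seen by these lookups. Of all genes with a symbol, 12.5% were in a module. Of 51 assembly factors by symbol, 10 were in a module: 9 in module 7, among them TMEM126A of complex I assembly, atpaf1 of ATP synthase assembly and COX11, which serves copper insertion into complex IV, and 1, higd1a, in module 6. Module 7 thus held 9 of these 10, beside its 8.52% of all module genes. Of 139 symbols for the replication, transcription, processing and translation of mitochondrial DNA and RNA, 124 were in the name table and 15 identifiers were in a module. Of these 15, 11 were in module 7 (73.3%, again beside 8.52%) and 0 in module 1. None of the 10 genes for copying and packing mitochondrial DNA, such as tfam and polg, was in any module. Beside 12.5% of all genes with a symbol, this absence among so few genes is not read as a result about them. Transcription was represented by MTERF2 in module 5 and mterf3 in module 7, both of the family of mitochondrial transcription termination factors. RNA processing was represented by ELAC2 in module 6, a nuclease that cuts the ends of tRNAs from precursor transcripts. Translation was represented by GFM2 in module 3 and OXA1L in module 7, which inserts newly made subunits into the inner membrane, and by 10 mitochondrial ribosomal proteins, 9 in module 7, MRPL41 the first, and MRPL32 in module 8.

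Of the 60 symbols for protein import and for fusion, fission and mitophagy, 47 were in the name table. Of their 47 identifiers, 8 were in a module, beside 12.5% of all genes with a symbol. These 8 were HSPA9 in module 5, HSPD1, TIMM17B and AFG3L2 in module 6, TOMM5 and timm23a in module 7, and FUNDC1 and TIMM22 in module 8. Module 1 held 0 (beside 34.7% of all module genes) and module 7 held 25.0% (beside 8.52%). With any final a or b of a symbol ignored, an alternative chosen after seeing the data, 11 identifiers of this list were in a module and 1 of them, MFN1, which fuses outer mitochondrial membranes, was in module 1. Of 13 regulators of mitochondrial content, 11 were in the name table and 5 were in a module. Of these 5, 1 (beside 34.7% of all module genes) shared module 1 with the mitochondrial transcripts: esrrgb, an oestrogen-related receptor, at position 1095. The others were pprc1 in module 4, TFEB in module 5, and NRF1 and the coactivator PPARGC1A in module 6. With the same looser matching, 6 regulators were in a module, the added one being ESRRG in module 6.

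Markers of cell types were looked up in the same lists. The name table held 8 of 14 cardiomyocyte symbols, 10 of 13 for leukocytes, 8 of 10 for endothelium and 9 of 10 for fibroblasts and epicardium. It held 4 of 7 for erythrocytes and 2 of 4 for smooth muscle, and the missing symbols could not be placed. Of 9 cardiomyocyte marker identifiers in a module, 0 lay in module 1. MYL7, tnnc1a, cmlc1 and actc1a lay in module 7 (8.52% of all module genes), xirp1 and MYH6 in module 4, and nppa, nppb and myh6 in modules 5, 2 and 6. Module 1 held 4 of 9 leukocyte markers (cd74a, LCP1, cd74b and ptprc), 1 of 7 endothelial markers (cdh5), 2 of 5 fibroblast and epicardial markers (SPARC and col1a1a), 1 of 3 smooth muscle markers (TAGLN) and the lone erythrocyte marker found, gata1a. Over these cell types together, 9 of 25 marker identifiers (36.0%) lay in module 1, close to its 34.7% of all module genes. The other 5 leukocyte markers, among them c1qb, CORO1A, marco and spi1a, lay in module 3, as did 4 of the 7 endothelial markers. Module 3 holds 8.02% of all module genes. A further identifier with the symbol TAGLN lay in module 5, and the smooth muscle marker acta2 lay in module 7. As no levels are given, none of these markers can be said to be at or near 0, and their part in the grouping of the mitochondrial genes was not tested.

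In the annotation charts, 11 of 834 rows list at least 1 of the 9 genes. All 11 are in the chart of module 1, which has 202 rows, as they had to be with all 9 genes in that module. An unadjusted p under 0.05 was given for 5 of the 11 in the authors' deposited table, against 56.9% of all rows of that chart. A Benjamini-adjusted p under 0.05 was given for 2 of the 11 in the authors' deposited table, against 4.46% of all rows of that chart. Those 2 are the broad terms that name membranes, in which the mitochondrial genes are a small part. All 9 genes are among the 434 genes of "membrane", with a fold enrichment of 1.22 and an adjusted p of 8.27e-05 in the authors' deposited table. All 9 are also among the 402 of "integral component of membrane", at 1.15-fold and an adjusted p of 0.0281 in the authors' deposited table. The cell that lists the genes of this second term holds 401 identifiers.

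**Figure D3:**
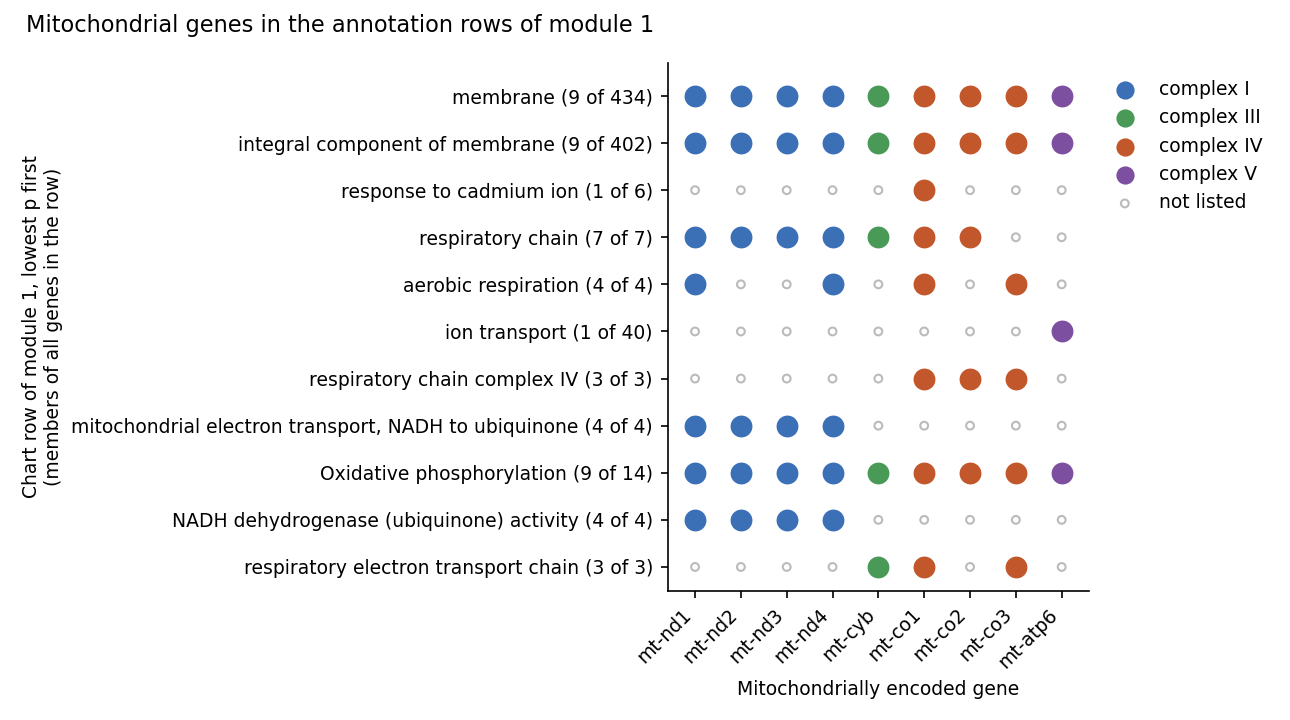
Each line is a row of the chart of module 1 that lists a mitochondrial gene, ordered by the deposited p, with the number of mitochondrial genes of all genes in the row, and each column is a gene. A filled point in the colour of the complex marks a gene that the row lists. The 9 genes stand together in 3 rows, and 6 rows consist of them alone.

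The 6 rows made up of mitochondrially encoded genes alone all name respiration, the respiratory chain, electron transport or NADH dehydrogenase activity, and none passes the adjusted threshold. "Respiratory chain" lists 7 genes, mt-nd1 to mt-nd4 with mt-cyb, mt-co1 and mt-co2, at 3.40-fold (p = 0.0157, adjusted p = 0.340 in the authors' deposited table). It leaves out mt-co3 and mt-atp6, of which the latter belongs to the ATP synthase and carries no electrons. "Aerobic respiration" lists mt-nd1, mt-nd4, mt-co1 and mt-co3, at 5.47-fold (p = 0.0337, adjusted p = 1 in the authors' deposited table). The 3 genes mt-co1, mt-co2 and mt-co3 are the whole of "respiratory chain complex IV", at 6.64-fold (p = 0.0715, adjusted p = 0.955 in the authors' deposited table).

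The genes mt-nd1 to mt-nd4 fill a pair of rows with the same gene set. These are "mitochondrial electron transport, NADH to ubiquinone", at 3.91-fold (p = 0.0796, adjusted p = 1), and "NADH dehydrogenase (ubiquinone) activity", at 3.60-fold (p = 0.0969, adjusted p = 1), both in the authors' deposited table. They describe the same genes by process and by activity and are 1 set of genes counted in 2 rows. "Respiratory electron transport chain" lists mt-co1, mt-co3 and mt-cyb, at 5.60-fold (p = 0.0973, adjusted p = 1 in the authors' deposited table).

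The remaining 3 rows mix mitochondrial genes with others. The KEGG pathway "Oxidative phosphorylation" lists all 9 of them among 14 genes, at 1.63-fold (p = 0.0862, adjusted p = 0.747 in the authors' deposited table). The other 5 are ATP6V1A, ATP6V0B, ATP6V0C, atp6v1e1b and atp6ap1b, subunits and an accessory protein of the vacuolar proton pump, which acidifies lysosomes and other vesicles and makes no ATP. With the 9 mitochondrial genes taken out of the counts, the ratio of this row was 0.633. That value sets the 5 vacuolar genes against all other genes of the pathway in the background, nuclear-encoded respiratory subunits included, and is no share of the vacuolar genes themselves. "Ion transport" lists mt-atp6 among 40 genes, at 1.33-fold (p = 0.0592, adjusted p = 1 in the authors' deposited table), with ion channels such as ORAI1, ASIC1 and PKD2 and 4 of the same vacuolar genes. "Response to cadmium ion" lists mt-co1 among 6 genes, at 8.21-fold (p = 0.000539, adjusted p = 0.125 in the authors' deposited table). Its other genes are nuclear: the metallothionein MT1X, whose symbol only resembles a mitochondrial one, the heat shock genes hsp70l and HSPA2, GADD45B and tap2a.

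The number of rows per gene followed the gene's complex only in part. mt-co1 was in 8 rows, the highest number, mt-nd1 and mt-nd4 in 7, mt-nd2, mt-nd3 and mt-co3 in 6, mt-co2 and mt-cyb in 5, and mt-atp6 in 4, the lowest. mt-nd1 and mt-nd4 had the same set of rows, as did mt-nd2 and mt-nd3, while mt-co2 and mt-co3 of the same complex shared 4. Likeness was measured by the Jaccard index, the number of rows 2 genes share divided by the number that list either, and ran from 0.333 to 1 over the 36 pairs. These are differences in how the genes are annotated and do not reflect a measurement in these cells.

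By the same index, taken against the 11 rows as a set, the genes of module 1 most like the mitochondrial ones were the vacuolar proton pump genes ATP6V0B and ATP6V0C, at 0.286 with 4 rows shared each. Next were si:ch211-225p5.8 and CACHD1 at 0.273, then SLC30A1, OTOP2, kcnj21, TRPA1 and KCNV2 at 0.25 and ASIC1 at 0.231. All 8 of these share the 2 membrane rows and "ion transport" with the set, and no row that names respiration.

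The chart of module 7 lists 7 of the 11 terms too, filled with other genes. No gene is shared between the 2 charts in any of the 7, since no gene lies in both modules. "Oxidative phosphorylation" has 51 genes there at 11.5-fold (adjusted p = 3.74e-39), against 14 at 1.63-fold in module 1, both in the authors' deposited table. By the same subunit list, with any final a or b of a symbol ignored, the 51 comprise 18 genes of complex I, 1 of complex II, 4 of complex III, 9 of complex IV, 14 of complex V and 5 others, such as cycsb, a cytochrome c. None of the 51 is a vacuolar pump gene by symbol. "Respiratory chain" has 17 genes in module 7 at 27.8-fold (adjusted p = 7.11e-18 in the authors' deposited table), among them UQCRFS1 and NDUFB8, and the 7 mitochondrial genes bring the genes of this term in either module to 24 of 41 in the background.

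"Respiratory chain complex IV" is split evenly: mt-co1, mt-co2 and mt-co3 in module 1, and cox6b1, cox6b2 and coa6, an assembly factor, in module 7 (22.3-fold, adjusted p = 0.0343 in the authors' deposited table), together 6 of the 9 background genes. For "mitochondrial electron transport, NADH to ubiquinone", module 7 lists NDUFB8, ndufa7, NDUFS8 and NDUFA8 (13.6-fold, adjusted p = 0.0486 in the authors' deposited table), as many as the 4 mitochondrial ones. In module 7 "NADH dehydrogenase (ubiquinone) activity" has 6 genes (18.9-fold, adjusted p = 0.000318 in the authors' deposited table) and "aerobic respiration" has UQCRB, NDUFS8 and UQCRH (14.3-fold, adjusted p = 0.211 in the authors' deposited table). "Ion transport" has 18 genes there (2.08-fold, adjusted p = 0.0892 in the authors' deposited table), 14 of them ATP synthase genes by symbol, so that mt-atp6 and its nuclear-encoded partners carry the same term in different charts. A term of equal gene number has a higher ratio in module 7 because that module has fewer annotated genes, 305 against 1026 for cellular components.

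**Figure D4:**
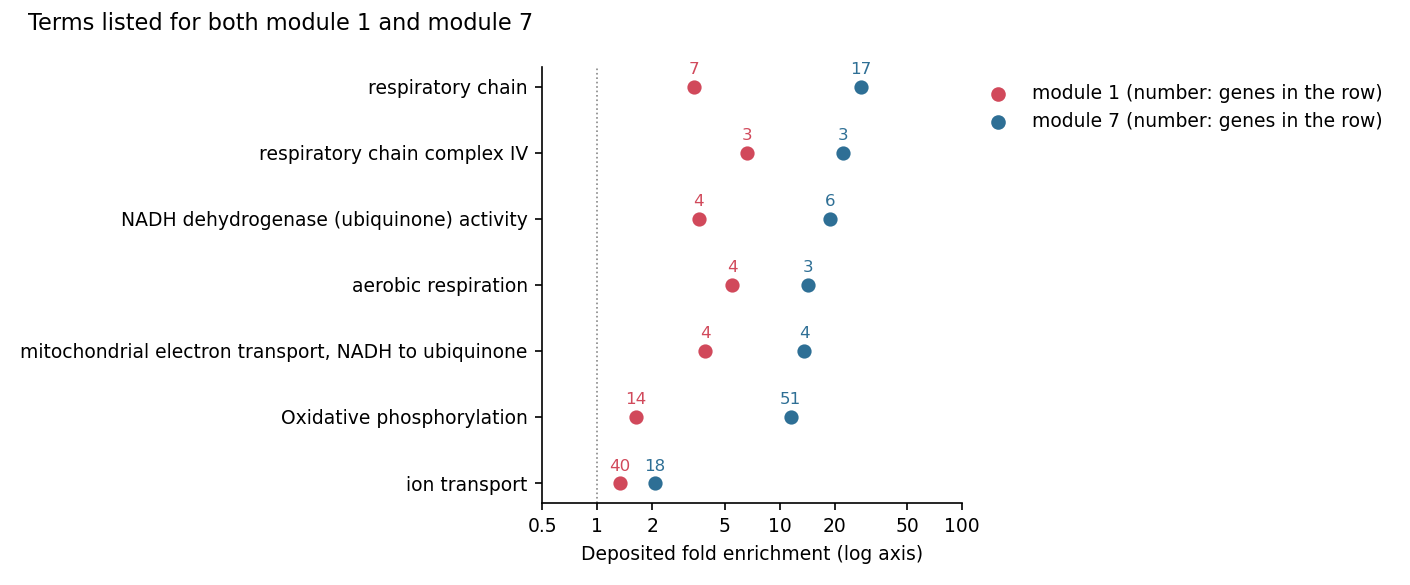
The horizontal axis, on a log scale, gives the fold enrichment in the authors' deposited table for the 7 terms listed for both modules, in red for module 1 and in blue for module 7, and the number beside each point is the number of genes in the row. The dotted line marks a ratio of 1. All 7 terms have a higher ratio in module 7, from 2.08 to 27.8, than in module 1, from 1.33 to 6.64.

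Several terms that take in these complexes are listed for module 7 and not for module 1. The chart of module 7 has rows for "mitochondrion" with 79 genes, "mitochondrial inner membrane" with 34, "mitochondrial respiratory chain complex I" with 17, "ATP synthesis coupled proton transport" with 13 and "cytochrome-c oxidase activity" with 8 in the authors' deposited table. The chart of module 1 has none of these rows. The deposited charts hold no row with a p above 0.1, so a missing row does not show that the mitochondrial genes lack the annotation. Rows were also counted by words for respiration and mitochondria, chosen after the charts were seen. Such a word is in 7 of the 202 rows of module 1 and 39 of the 155 rows of module 7. Modules 2, 6 and 8 have 1 such row each and modules 3, 4 and 5 have 0. A row with mitochondria in its name, as 25 of the 39 have, need not concern energy metabolism. The 7 of module 1 are the rows described above, and each lists mitochondrially encoded genes. None of the 39 of module 7 could list them. A chart holds genes of its own module, and the mitochondrially encoded genes found lie in module 1 alone.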

How the data were processed

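Single cells were processed with the SORT-seq and CEL-Seq2 protocols from 3 wildtype and 4 hmga1a mutant plates, per the labels' protocols, and Seurat is named without a version or role, per the submitters' processing notes. The sources used here do not name the aligner, the genome build or the method that gave the modules. The files analysed are 8 lists of Ensembl gene identifiers without values and 8 annotation charts. In the charts, per the file headers, the authors give for each term a count of module genes, the percent of module genes, a p-value, the annotated gene counts of module and background, the fold enrichment as a ratio, and a Benjamini-adjusted p-value. The ratio was recomputed from the deposited counts and came out within 0.1% of the deposited value in all 834 rows. In 35 rows the number of identifiers in the cell of genes differs from the count. A column of false discovery rates with a damaged number format was not used.

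Identifiers were given symbols from a table of 29201 zebrafish genes, which names 3651 of the 4449 module genes (82.1%), and symbols were matched exactly, ignoring case. A RefSeq table of assembly GRCz12tu, with 13 protein-coding, 22 tRNA and 2 rRNA genes on the mitochondrial genome, served only for the order of neighbouring genes. The members and gene lists were chosen with earlier results of these data known. Lists are described by counts, with the share of all module genes in module 1 or 7 beside the totals, and with no test, since members share 1 genome and no sample has a value. The counts cover whole lists and have no sampling error. The text names all members, all genes of the mitochondrial genome, subunits outside module 7, the first 4 of each complex in module 7, up to 6 genes of a list in module 1 and 4 elsewhere in the deposited order, the named genes beside the block, every chart row with a member, and the 10 genes most like the members. Genes named as examples within a chart row, and those of groups of 10 or fewer, were chosen after their places were seen. Analyses used Python 3.11.15, and plots matplotlib 3.10.9.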

Additional observations from a re-analysis of the deposited data

How the results depend on the processing

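The count of mitochondrial genes in module 1 was 9 in the first ascending runs of identifiers, and 9 of 13 when all 13 protein-coding genes were looked up. With their positions known, neither alternative could change this count, as the 9 lie in the first run and the other 4 in no module. Of the 11 chart rows, 10 were left with equal gene sets counted once, 5 with an unadjusted p under 0.05 and 2 with a Benjamini-adjusted p under 0.05. With the mitochondrial genes taken out of the counts, the ratio was 0 for the 6 rows made of them alone, as it had to be, and 0.633 for "Oxidative phosphorylation". For "membrane" (1.20), "integral component of membrane" (1.14), "ion transport" (1.31) and "response to cadmium ion" (7.39) it stayed within the counting interval (exact, 95%) of the deposited ratio. That interval treats genes as independent draws. The mitochondrial genes are a minority of each of these rows, so staying within it says little. Nuclear-encoded subunits in module 1 stayed at 0 in each of the 3 alternatives and in module 7 ran from 47 to 56. In module 1 the first runs could not change a count of 0 in whole lists, and the assembly factors were already counted at 0 there. Only the looser matching could have moved it. Genes of mitochondrial gene expression in module 1 stayed at 0 without a final a or b. Genes of import and dynamics in module 1 went from 0 to 1 (MFN1) with the same looser matching, an alternative chosen after seeing the data. Matching through RefSeq was not run, as none of its mitochondrial entries gives an Ensembl identifier, nor was matching the charts by symbol, as they hold identifiers alone. No paired analysis was possible because the module lists hold no value for any plate. The depth is unknown, and why a gene lies in no module was not tested.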

Other observations

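The vacuolar proton pump genes that stand with the mitochondrial genes under oxidative phosphorylation were followed through the modules by the start of their symbols, a choice made after the charts were seen. Of 27 such names in the table, 11 were in a module and 6 of these (54.5%, beside 34.7% of all module genes, with no test) in module 1: ATP6AP2, atp6v1e1b, ATP6V0B, ATP6V0C, atp6ap1b and ATP6V1A. ATP6V1G1 lay in module 2, atp6ap1la in module 3, ATP6V1B2 and a further identifier named ATP6V1A in module 4, and ATP6V0A2 in module 5. None of the 11 lay in module 7, beside its 8.52% of all module genes, and for so few genes this is not read as a separation. Module 7 holds nuclear-encoded genes of the ATP synthase, which turns in the opposite direction and makes ATP.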
